A study of Mus musculus with 8 samples.

Results

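The TRAV7 family was the V gene family with the most α-chain clonotypes and the most reads in the endogenous CD8+ T cells of these tumor-bearing mice. Its members are all α-chain clonotypes whose V call was a TRAV7 segment of the plain, D or N series, and they numbered 9151 of 53249 rows in the 8 α libraries, with 15009 of 80000 reads. A clonotype is here one CDR3 nucleotide sequence with its V and J call in one mouse. Segments that serve both the α and the δ chain, which carry DV in their names, were not members. The members were chosen by V name alone and not by any measured value, though earlier results of these data were known.

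The libraries came from 8 female C57BL/6 mice, aged 6 to 8 weeks, in 2 groups. All 8 received 200000 B16F10 melanoma cells in the skin on day 0, cyclophosphamide at 300 mg/kg on day 3, 2000000 Thy1.1 Pmel-1 cells on day 5 and IL-2 at 10000 IU daily for 3 days. The 3 CTX mice had no antibody, and the 5 CTX/CD4 mice also had 200 µg of the anti-CD4 antibody GK1.5 on days 10, 17 and 24. CD8+ cells negative for Thy1.1 were sorted from lymph nodes and spleen on day 25, so that the transferred Pmel-1 cells, which carry Thy1.1 and a transgenic receptor against the melanoma peptide of gp100, were to be left out. The comparison of the groups asked what the anti-CD4 antibody did to the receptor repertoire of the host's own CD8+ cells. No untreated mice were analysed here, and receptor reads do not allow a check of the CD8 label by other genes.

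The α chain of the T cell receptor is assembled in thymocytes by joining one of many V segments to one of many J segments. Joining takes place on the same chromosome and can be repeated, each time with a V further upstream and a J further downstream, until the cell is selected or dies. At the joint, bases are trimmed from both ends and bases without a template are added, and the resulting CDR3 loop contacts the peptide held by the MHC molecule. The mouse V region has been duplicated in large blocks, which is why TRAV7 segments come as plain, D and N copies. TRAV7 corresponds to the older name Vα1, the V region of the Pmel-1 receptor. The α sequence of the Pmel-1 receptor is not in the sources used here.

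The annotation places 14 TRAV7 segments on the plus strand of chromosome 14 (GRCm38, the build of the labels), over 1062 kb from TRAV7-1 at the 5′ end to TRAV7-6 at the 3′ end. Clonotypes were named for 13 of them. TRAV7D-6 was named in 0 of 80000 reads, but its V exon is identical to that of TRAV7N-6, so that reads of both cannot be told apart. The V exons of TRAV7D-5 and TRAV7N-5 are identical as well, TRAV7-2 and TRAV7D-2 have 0 mismatches over 288 aligned bases, TRAV7-4 and TRAV7D-4 have 1, and TRAV7-3 and TRAV7D-3 have 2. TRAV7-5 differs from TRAV7N-5 at 14 bases and TRAV7-6 from TRAV7N-6 at 9.

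The family contributes 4 germline CDR3 starts, read from the conserved cysteine codon to the end of the coding sequence, and they are shown because they set the first residues of every loop below. Each line names first the segment it was read from and gives that segment's place on GRCm38, plus strand.
TRAV7D-2, also TRAV7-2, chr14:52684460-52684472: tgtgcagcaagca
TRAV7N-5, also TRAV7-1, TRAV7-3, TRAV7D-3, TRAV7-5, TRAV7D-5, TRAV7-6 and TRAV7N-6, chr14:53147436-53147448: tgtgcagtgagca
TRAV7D-4, also TRAV7-4, chr14:52770376-52770392: tgtgcagctagtgagca
TRAV7N-4, chr14:53091859-53091875: tgtgcagttagtgagca
The TRAV7N-5 form, shared by 8 named segments, was the V start of 5204 clonotypes (56.9%). The TRAV7D-2 form was that of 2017 (22.0%), the TRAV7D-4 form that of 1689 (18.5%) and the TRAV7N-4 form that of 241 (2.63%). The forms of TRAV7D-4 and TRAV7N-4 are 17 bases long and the other forms 13.

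The clonotypes that the results turn on are the most-read one of each mouse and those that came back across mice. They are written 5′ to 3′ in lower case, and capitals mark bases matched by neither the germline V start from the left nor the germline J segment from the right. The names give the mouse or the CDR3 residues, the V with the most reads and the J.
CTX mouse 1, TRAV7-3 with TRAJ9: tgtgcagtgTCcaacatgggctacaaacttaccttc
CTX mouse 2, TRAV7-3 with TRAJ7: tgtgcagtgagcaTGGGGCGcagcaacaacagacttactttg
CTX mouse 3, TRAV7-5 with TRAJ33: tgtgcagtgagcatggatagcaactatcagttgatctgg
CTX/CD4 mouse 1, TRAV7D-4 with TRAJ33: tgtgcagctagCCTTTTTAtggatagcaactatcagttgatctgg
CTX/CD4 mouse 2, TRAV7D-2 with TRAJ26: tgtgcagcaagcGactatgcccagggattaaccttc
CTX/CD4 mouse 3, TRAV7-5 with TRAJ21: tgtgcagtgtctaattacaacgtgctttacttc
CTX/CD4 mouse 4, TRAV7N-5 with TRAJ45: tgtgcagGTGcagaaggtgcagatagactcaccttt
CTX/CD4 mouse 5, TRAV7D-3 with TRAJ31: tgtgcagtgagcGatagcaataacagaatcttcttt
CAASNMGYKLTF, TRAV7D-2 with TRAJ9: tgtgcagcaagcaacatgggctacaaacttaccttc
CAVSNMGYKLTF, TRAV7N-5 with TRAJ9: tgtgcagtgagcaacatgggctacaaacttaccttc
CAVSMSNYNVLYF, TRAV7-3 with TRAJ21: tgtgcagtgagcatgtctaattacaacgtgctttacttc
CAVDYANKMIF, TRAV7-5 with TRAJ47: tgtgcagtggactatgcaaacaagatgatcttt
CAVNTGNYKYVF, TRAV7N-5 with TRAJ40: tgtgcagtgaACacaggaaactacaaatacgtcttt
The most-read clonotypes of single mice had between 0 and 8 unmatched bases. All 4 sequences named with a TRAV7 segment in every mouse, which are the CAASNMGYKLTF, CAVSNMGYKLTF, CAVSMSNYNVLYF and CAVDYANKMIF lines, had 0.

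Each α library held 10000 reads, to which the authors had sampled it down. The 8 libraries had 5043 to 7695 clonotypes, of which 828 to 1435 were of the family, and 60.1% to 79.2% of the family's clonotypes had 1 read. No CDR3 nucleotide sequence had more than 1 row in a library, so each carried 1 V name there even where cells with different V segments may share it. A sequence with no read in a library may be present at up to 3 reads of 10000, which is 0.0300% (a count of 0, counting error only). Of the family's clonotypes with 5 or more reads in CTX/CD4 mouse 1 and found in none of 6 other mice, 6 of 22 were also in the library of CTX/CD4 mouse 2. In the other 55 ordered pairs of mice this number was 0 to 3. The 39 sequences held by CTX/CD4 mice 1 and 2 alone made up 14.2% of the family reads of mouse 1 and 3.20% of those of mouse 2. In mouse 1 they had 257 reads, of which 121 were of 1 clonotype. This share was not computed for other pairs of mice. Whether these sequences passed between the libraries was not tested, and the group differences that moved most without either mouse are given below. Invariant pairings of other T cells were rare, with 2 to 25 reads of TRAV11 with TRAJ18, which marks invariant natural killer T cells, and 0 to 6 reads of TRAV1 with TRAJ33, which marks mucosal-associated invariant T cells.

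The family took between 17.6% and 20.8% of the reads in every mouse. It held 18.8%, 17.6% and 17.8% of the reads in CTX mice 1 to 3, and 18.2%, 19.7%, 19.1%, 20.8% and 18.2% in CTX/CD4 mice 1 to 5. The Wilson 95% interval of the lowest value ran from 16.9% to 18.3% and that of the highest from 19.99% to 21.6%, which covers counting error only. The groups overlapped, with a mean of 18.0% ± 0.638 (SD, n = 3) in CTX and 19.2% ± 1.09 (SD, n = 5) in CTX/CD4, and the exact two-sided Mann-Whitney test gave p = 0.143 (adjusted over 11 comparisons of the groups, p = 0.314). The smallest p this design allows is 0.0357. As a share of clonotypes the family held 16.7% ± 0.422 in CTX and 17.4% ± 1.19 in CTX/CD4, and this difference was also within the spread between mice (exact Mann-Whitney p = 0.571, adjusted p = 0.786). That difference of 0.748 percentage points was 1.13 without CTX/CD4 mouse 1 and 0.442 without CTX/CD4 mouse 2. In RNA from a whole sort, fewer cells with a receptor and less receptor RNA in each cell cannot be told apart.

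**Figure D1:**
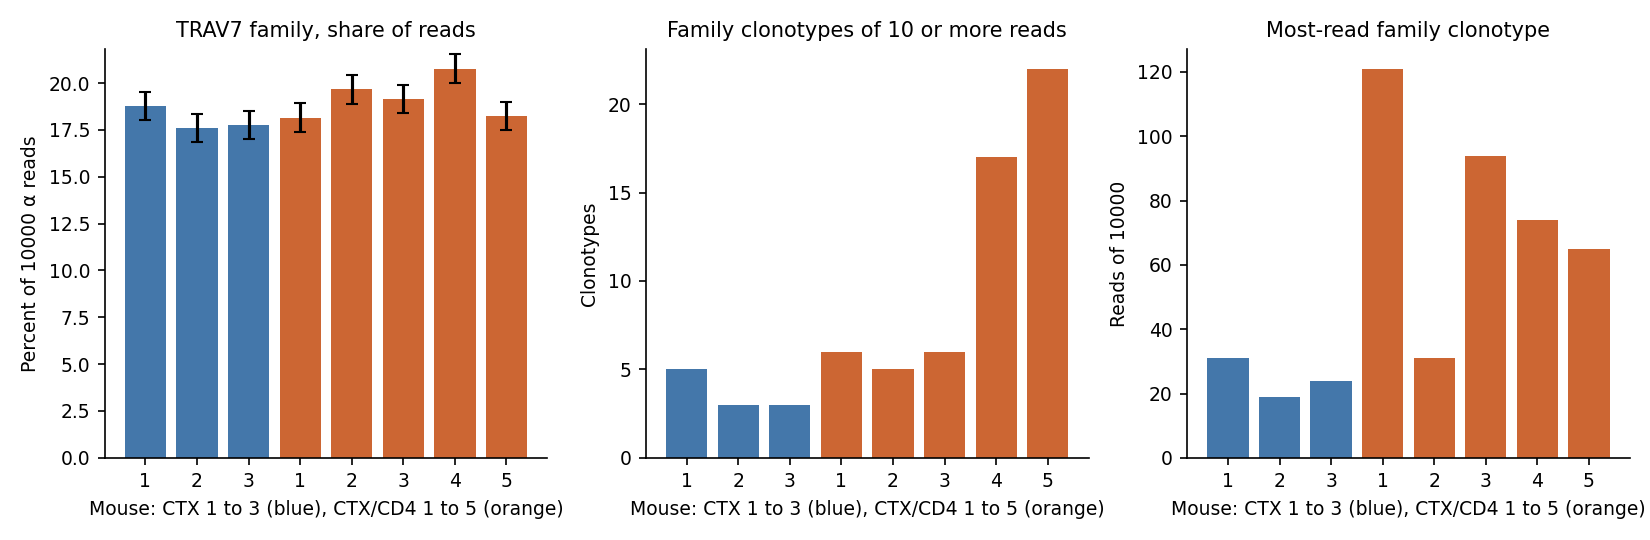
TRAV7 family in each mouse, as the share of the 10000 α reads with its Wilson 95% interval (left), the number of family clonotypes with 10 or more reads (middle) and the reads of the most-read family clonotype (right). The share lies between 17.6% and 20.8% in all 8 mice, whereas CTX/CD4 mice 4 and 5 stand highest in the number of clonotypes with 10 or more reads, at 17 and 22.

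A few copies supplied most of the family. TRAV7-5 had 3264 reads over all mice (21.7% of family reads), TRAV7D-2 had 2954 (19.7%) and TRAV7N-5 had 1692 (11.3%). At the other end were TRAV7D-5 with 210 reads, TRAV7-6 with 274 and TRAV7-1 with 305. In order of the mean share of family reads over the 8 mice, TRAV7-5 (21.7% ± 2.63) and TRAV7D-2 (19.7% ± 2.00) differed by less than the larger of their SDs, and TRAV7N-5 (11.3% ± 1.07), TRAV7D-4 (10.1% ± 2.91) and TRAV7D-3 (9.58% ± 1.54) did so as well. By series, plain copies took 43.1% of family reads, D copies 40.7% and N copies 16.2%. The V exons of TRAV7D-5 and TRAV7N-5 are identical, and those of TRAV7-2 and TRAV7D-2 have 0 mismatches. The counts of these single copies and the shares of the series therefore depend on how the reads were named.

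The use of single copies did not pass the test between the groups. Reads of TRAV7-5 were 379, 338 and 404 in CTX mice 1 to 3 and 319, 494, 476, 461 and 393 in CTX/CD4 mice 1 to 5. The 3 highest values were in CTX/CD4 mice but so was the lowest. Reads of TRAV7D-2 were 413, 329 and 335 in CTX mice and 358, 329, 341, 455 and 394 in CTX/CD4 mice, again with overlap. In edgeR's quasi-likelihood test over all V segments, 0 of the 13 TRAV7 segments passed an adjusted p of 0.05, and 0 had an unadjusted p under 0.05. The background was also 0% (0 of 103 V segments called, 6 with an unadjusted p under 0.05), and DESeq2 called 0 as well. The log2 differences of the family, CTX/CD4 over CTX, ran from -0.34 ± 0.33 (SE) for TRAV7N-4 to 0.56 ± 0.37 for TRAV7-2. Because near-identical copies can be exchanged in naming, the copies were also merged by their number, as an alternative chosen after seeing the data, and 0 of 6 merged segments passed.

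**Figure D2:**
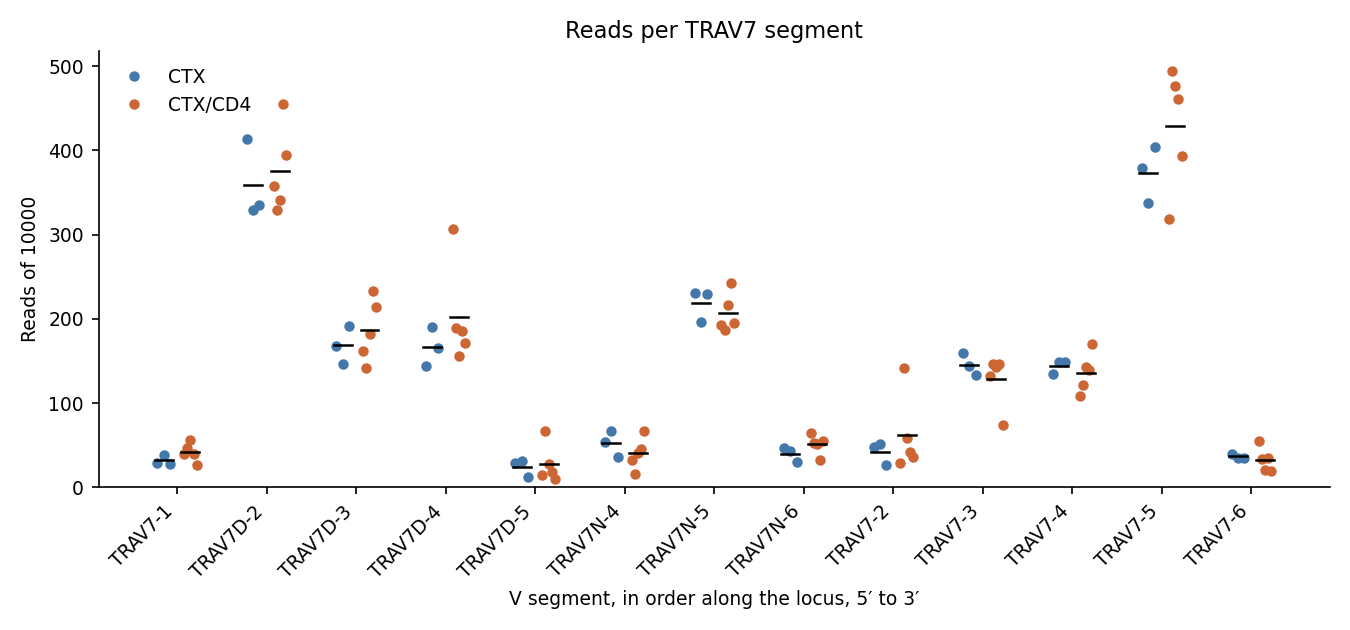
Reads of each TRAV7 segment per mouse, of 10000, with the segments in order along the locus, points for single mice and lines for group means. TRAV7-5 and TRAV7D-2 stand highest in all mice, and the CTX and CTX/CD4 points overlap for every segment.

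The share of family reads with an N copy was 17.7%, 17.4% and 16.7% in CTX mice 1 to 3 and 15.98%, 13.0%, 16.1%, 15.5% and 17.4% in CTX/CD4 mice 1 to 5. CTX/CD4 mouse 5 lay inside the CTX range and the other 4 below it (exact Mann-Whitney p = 0.0714, adjusted p = 0.262). The difference of -1.66 percentage points was -1.01 without CTX/CD4 mouse 2. D copies took 39.8% ± 0.311 in CTX and 41.3% ± 4.19 in CTX/CD4, and plain copies 42.9% ± 0.777 and 43.1% ± 5.21. Neither difference exceeded the spread (exact Mann-Whitney p = 0.786 for both, adjusted p = 0.864). The difference for D copies, 1.49 percentage points with all mice, was 0.214 without CTX/CD4 mouse 1, 2.57 without mouse 2 and 2.58 without mouse 3. That for plain copies, 0.169 with all mice, was 1.54 without CTX/CD4 mouse 1 and -1.56 without mouse 2, and 2.95 with each clonotype counted once. The library of CTX/CD4 mouse 2 differed from the others in how it split near-identical copies. TRAV7-2 made up 37.6% of its clonotypes named TRAV7-2 or TRAV7D-2, against 10.2% to 20.5% in the other mice, and TRAV7D-5 made up 32.2% of those named TRAV7D-5 or TRAV7N-5, against 8.06% to 17.4%. These exons have 0 mismatches, with 2 gapped bases between TRAV7-2 and TRAV7D-2, so mismatches in them do not separate the names. The part of this split in the other results was not tested.

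The same CDR3 sequence often carried different V names. Of 7727 distinct family CDR3 nucleotide sequences, 923 were named with the family in more than 1 mouse. Of these, 627 (67.9%) carried more than 1 TRAV7 name, and 387 (41.9%) more than 1 segment number. Of all 7727, 441 (5.71%) were named with a V of another family in some mouse. Cells that made the same CDR3 from different V segments and an exchange of names cannot be told apart here. Within a mouse, 0 family clonotypes shared CDR3 and J with another V family, which follows from the listing of each sequence once.

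The 2 TRAV7 segments furthest 3′, TRAV7-5 and TRAV7-6, had higher mean TRAJ numbers than the rest of the family, which is given as a description with no test. The mean TRAJ number of a segment's clonotypes was 24.8 ± 1.27 (SD, n = 8 mice) for TRAV7-1, the most upstream of the family, and 39.7 ± 2.41 for TRAV7-6, its most downstream. TRAJ numbers fall in the direction of transcription, so a high number marks a J close to the V region. TRAV7-5, the next TRAV7 segment upstream of TRAV7-6, had 32.0 ± 0.877, and the other 11 segments had means between 23.2 and 28.0. In the order of these 11 means, the ranges over mice of any neighbouring segments overlapped. TRAV7-6 had its lowest mouse at 35.8, above the highest mouse of every other segment, and TRAV7-5 ran from 30.8 to 33.5. TRAV7D-5 reached into that range, with 32.1 in CTX/CD4 mouse 3, from 25 clonotypes.

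Copies of one number share most of their V sequence, and the plain copy, which lies downstream, had the higher mean TRAJ number in all 8 mice for 3 of the 6 pairs compared. These differences are given as a description, with no test. TRAV7-6 exceeded TRAV7N-6, by 14.3 ± 3.91 TRAJ positions and was higher in 8 of 8 mice (lowest difference 7.62). TRAV7-5 exceeded TRAV7N-5 by 4.29 ± 1.77 and was higher in 8 of 8 mice. TRAV7-4 exceeded TRAV7N-4, which had only 15 to 54 clonotypes in a mouse, by 4.77 ± 3.24 and was higher in 8 of 8 mice. The differences were within their SD for TRAV7-4 against TRAV7D-4 (0.292 ± 0.614, 5 of 8 mice higher), TRAV7-3 against TRAV7D-3 (-0.532 ± 2.03, 3 of 8) and TRAV7-2 against TRAV7D-2 (0.969 ± 1.53, 6 of 8). The V exons of these pairs have 1, 2 and 0 mismatches, against 9, 14 and 5 in the pairs that differed in all 8 mice. Near-identical copies can be exchanged in naming, and the part of this in the differences was not tested. Joins to TRAJ40 or a higher number made up 52.9% of TRAV7-6 clonotypes, 30.7% of those of TRAV7-5 and 10.2% of those of TRAV7-1, and joins to TRAJ20 or a lower number 3.88%, 15.7% and 32.0%. The most frequent partner was TRAJ45 for TRAV7-6 (7.77% of its 206 clonotypes), TRAJ31 for TRAV7-5 (6.09% of 1872) and TRAJ26 for TRAV7D-2 (7.61% of 1642). No one J dominated any segment, and 35 to 43 TRAJ segments were joined to each.

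**Figure D3:**
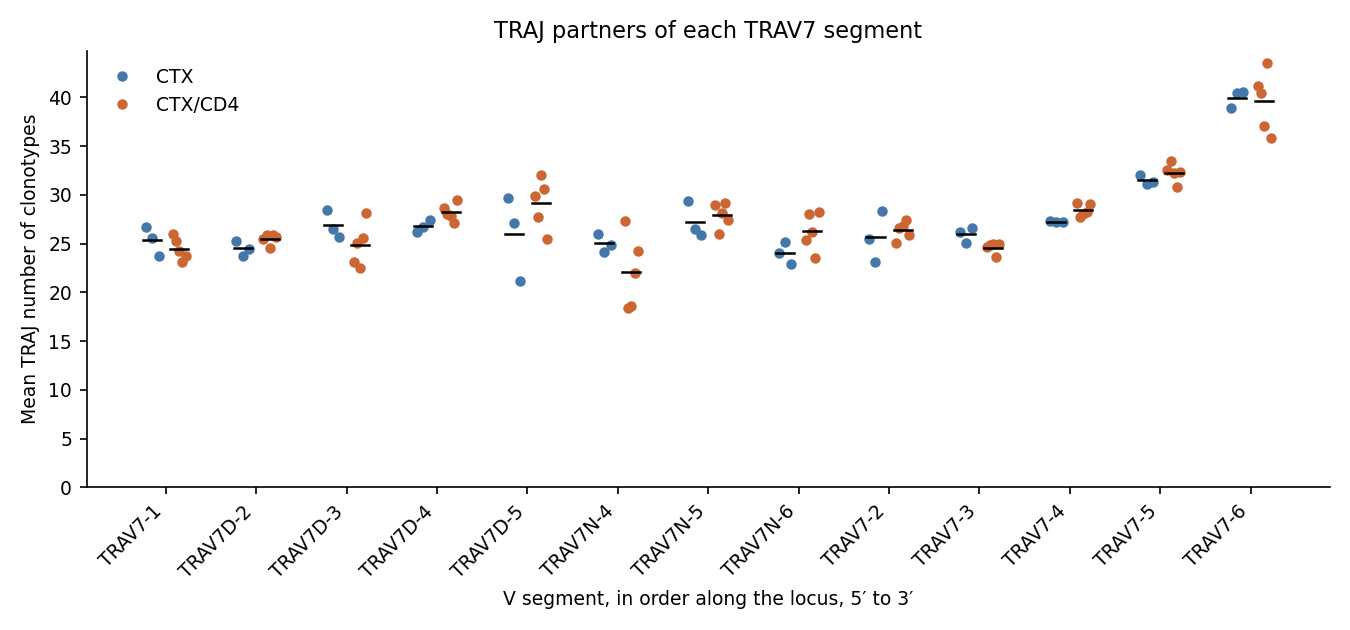
Mean TRAJ number of the clonotypes of each TRAV7 segment, with a point for each mouse and a line for each group mean, the segments in order along the locus. TRAV7-5 and TRAV7-6, the TRAV7 segments furthest 3′, have group means above the others in both groups, at 32.0 and 39.7 over all mice. The point of TRAV7D-5 for CTX/CD4 mouse 3, at 32.1, lies inside the range of TRAV7-5.

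Against all other α clonotypes of the same mice, the family joined J segments further downstream. Its mean TRAJ number was 28.1, 26.9 and 27.3 in CTX mice 1 to 3 and 28.2, 28.4, 27.2, 27.5 and 28.2 in CTX/CD4 mice 1 to 5, whereas the rest ran from 29.8 to 32.1. The family was lower in 8 of 8 mice, by 3.46 ± 0.446 positions (exact two-sided sign-flip test p = 0.00781, adjusted over 3 comparisons p = 0.0117), and 0.00781 is the smallest p that 8 mice can give. Among 19 V families with 20 or more clonotypes in each mouse, TRAV7 had the fourth lowest mean, 27.7, between TRAV12 at 27.6 and TRAV9 at 27.9. TRAV1 was lowest at 23.4 and TRDV1 highest at 49.1.

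By single J segment, 16 of 43 TRAJ segments passed the threshold in the exact sign-flip test on shares of clonotypes, which is 37.2% of those tested. Of these, 9 had a lower share in the family and 7 a higher one. The 9 were TRAJ58, TRAJ57, TRAJ56, TRAJ53, TRAJ52, TRAJ50, TRAJ49, TRAJ48 and TRAJ45, all at the V-proximal end of the J region. The 7 were TRAJ30, TRAJ26, TRAJ21, TRAJ17, TRAJ15, TRAJ13 and TRAJ4, all further downstream. The largest loss was at TRAJ49, with 2.62% ± 0.417 of family clonotypes against 4.47% ± 0.350 of the rest, and the largest gain at TRAJ26, with 6.24% ± 0.353 against 4.46% ± 0.371. TRAJ57 had 0.615% against 2.06%, and TRAJ15 had 3.99% against 3.01%. For 14 of the 16 the direction was the same in all 8 mice (adjusted p = 0.0240 by the exact sign-flip test), and for TRAJ13 and TRAJ4 in 7 of 8. Shares of one whole add to 100, so these segments are not independent of each other. With clonotypes of 1 read left out, 7 segments passed in place of 16.

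**Figure D4:**
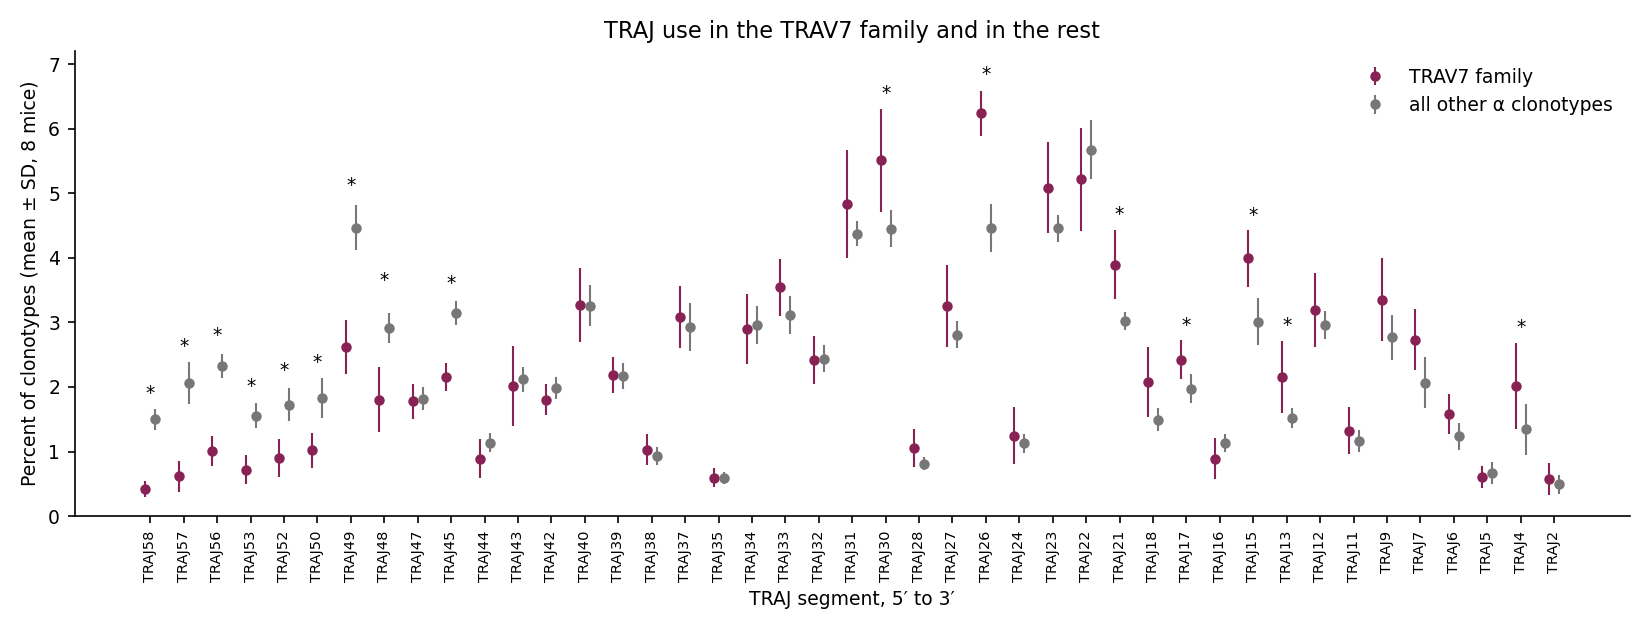
Share of clonotypes with each TRAJ segment in the TRAV7 family and in all other α clonotypes, as mean ± SD over 8 mice, the segments in order along the locus from 5′ to 3′. Asterisks mark the 16 segments past an adjusted p of 0.05 in the exact sign-flip test, which fall below the rest from TRAJ58 to TRAJ45 and above it from TRAJ30 onward.

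Between the groups the partners did not differ beyond the spread. The mean TRAJ number of the family was 27.4 ± 0.596 in CTX and 27.9 ± 0.517 in CTX/CD4 (exact Mann-Whitney p = 0.250, adjusted p = 0.458). The difference of 0.50 was 0.826 without CTX mouse 1 and 0.236 without CTX mouse 2. In edgeR's test on reads of all pairs of V family and TRAJ, 0 of 42 TRAV7 pairs passed an adjusted p of 0.05 and 1 had an unadjusted p under 0.05, against a background of 0% (0 of 338 pairs called, 16 with an unadjusted p under 0.05). DESeq2 also called 0. That 1 pair was TRAV7 with TRAJ21, named after its values were seen, with 68, 60 and 56 reads in CTX mice and 64, 83, 181, 162 and 38 in CTX/CD4 mice. CTX/CD4 mice 3 and 4 were high and mouse 5 was the lowest of all 8 (log2 difference 0.86 ± 0.40 SE, edgeR adjusted p = 0.856). In CTX/CD4 mouse 3, 94 of the 181 reads were of its most-read family clonotype.

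The CDR3 loops of the family were shorter than those of the rest. Mean length, counted in residues from the first to the last conserved position, was 13.4 ± 0.0405 in the family and 13.7 ± 0.0209 in the rest. The family was shorter in 8 of 8 mice, by 0.355 ± 0.0408 residues (exact sign-flip p = 0.00781, adjusted p = 0.0117). Among the 19 V families TRAV7 had the fourth shortest mean, 13.37 residues over all clonotypes. TRAV8 (12.97), TRAV13 (13.17) and TRAV4 (13.32) were shorter, TRAV5 (13.40) and TRAV12 (13.42) close to it, and TRAV16 (14.9) and TRAV15 (15.5) longest. Loops of 12 residues made up 18.8% ± 1.32 of family clonotypes and 12.8% ± 0.463 of the rest, and loops of 14 residues 26.8% ± 1.30 and 30.8% ± 0.602. When family and rest were compared within the same TRAJ segment and averaged by the family's use of J, the family was still shorter in 8 of 8 mice, by a mean difference of -0.265 ± 0.0300 residues.

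Length varied between segments of the family, also where they share a germline start. It was lowest for TRAV7-3 (12.7 ± 0.200 residues over mice) and TRAV7D-3 (12.8 ± 0.0975), and highest for TRAV7N-4 (14.5 ± 0.187) and TRAV7-4 (14.4 ± 0.154), which have the longer germline start of 17 bases. TRAV7D-4, with the same start as TRAV7-4, had 13.7 ± 0.130, and TRAV7-5 and TRAV7N-5, with the same start as TRAV7-3, had 13.3 each. The number of bases between V and J that the authors' alignment gave to neither was 2.19 ± 0.0591 in the family and 2.22 ± 0.0205 in the rest, and the difference did not pass (5 of 8 mice lower in the family, exact sign-flip p = 0.195, adjusted p = 0.195). On average 2.87 bases of the germline start were missing, and 22.4% of family clonotypes kept the whole of it.

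Between the groups, mean length was 13.4 ± 0.0553 residues in CTX and 13.3 ± 0.0221 in CTX/CD4, a difference of -0.0428 that did not pass (exact Mann-Whitney p = 0.393, adjusted p = 0.617). It was -0.0167 without CTX mouse 1 and -0.0718 without CTX mouse 3. The unassigned bases numbered 2.18 ± 0.0703 and 2.19 ± 0.0601 (exact Mann-Whitney p = 1, adjusted p = 1).

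Expanded members were more numerous in some CTX/CD4 mice, and so were expanded α clonotypes as a whole. Family clonotypes with 10 or more reads numbered 5, 3 and 3 in CTX mice 1 to 3 and 6, 5, 6, 17 and 22 in CTX/CD4 mice 1 to 5. All but CTX/CD4 mouse 2 exceeded every CTX mouse, and mouse 2 equalled CTX mouse 1. All α clonotypes with 10 or more reads, the family included, numbered 12, 12 and 15 in CTX mice and 43, 21, 35, 61 and 102 in CTX/CD4 mice. The family's part of these was 41.7%, 25% and 20% in CTX mice and 13.95%, 23.8%, 17.1%, 27.9% and 21.6% in CTX/CD4 mice. They held 4.16%, 2.73% and 3.43% of the family reads in CTX mice and 11.96%, 4.07%, 8.78%, 19.6% and 31.1% in CTX/CD4 mice. The exact Mann-Whitney test gave p = 0.0714 for the number and for the share (adjusted p = 0.262 for each). Neither passed, and a measure alone at the smallest p this design allows would not have passed either. Without CTX/CD4 mouse 5 the difference in number between the means fell from 7.53 to 4.83 and that in share from 11.7 to 7.67 percentage points, and without CTX/CD4 mouse 2 they were 9.08 and 14.4.

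Evenness of the family, the Shannon index divided by its maximum for that number of clonotypes, was 0.971, 0.978 and 0.973 in CTX mice 1 to 3 and 0.932, 0.974, 0.953, 0.927 and 0.893 in CTX/CD4 mice 1 to 5. A value of 1 means equal reads for every clonotype. CTX/CD4 mouse 2 lay inside the CTX range and the other 4 below it (exact Mann-Whitney p = 0.143, adjusted p = 0.314). For the α chain as a whole, the authors reported significantly lower evenness in the CTX/CD4 group. Evenness of the α clonotypes outside the family was not computed here. Over all mice the family supplied 67 of 301 α clonotypes with 10 or more reads (22.3%), beside 17.2% of all clonotypes and 18.8% of all reads.

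The most-read member differed from mouse to mouse. In CTX mice the leading clonotypes had 31, 19 and 24 reads, and in CTX/CD4 mice 121, 31, 94, 74 and 65. The leading clonotype of CTX/CD4 mouse 1, TRAV7D-4 with TRAJ33 and 15 residues long, held 6.67% of that mouse's family reads and otherwise occurred only in CTX/CD4 mouse 2, with 9 reads. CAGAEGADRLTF, the leader of CTX/CD4 mouse 4, and CAVSMGRSNNRLTL, the leader of CTX mouse 2, were found in no other mouse. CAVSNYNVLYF had 94 reads in CTX/CD4 mouse 3 and 1 read in each of 4 other mice, under 4 TRAV7 names. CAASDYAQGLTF had 31 reads in CTX/CD4 mouse 2, 5 in CTX mouse 3 and 4 in CTX/CD4 mouse 4. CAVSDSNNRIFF had 65 reads in CTX/CD4 mouse 5 and 1 in each of CTX/CD4 mice 1 and 4. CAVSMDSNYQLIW, which led in CTX mouse 3 with 24 reads, was in 7 of the 8 mice and had at most 5 reads in any other.

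Of the 67 expanded clonotypes, 35 occurred in no other mouse. This was the case for 4 of 11 in CTX mice and for 31 of 56 in CTX/CD4 mice, a difference that was not tested. The 67 held 57 distinct CDR3 nucleotide sequences, with 9 in CTX mice and 50 in CTX/CD4 mice. A recurrent sequence is thus counted in each mouse where it was expanded. The same share among expanded clonotypes of other V families was not counted. Of the 67, 32 occurred in another mouse under any V name. Of all family clonotypes in a mouse, 24.6% to 27.8% had a sequence that the family also carried in another mouse. Expanded clonotypes used 29 TRAJ segments, led by TRAJ9 with 10 in 7 mice, TRAJ26 with 6 in 4 mice and TRAJ40 with 6 in 6 mice. All 6 with TRAJ40 were 1 sequence, that of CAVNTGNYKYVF, and 5 of the 10 with TRAJ9 were that of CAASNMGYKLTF. The counts are therefore not of independent sequences. In CTX/CD4 mice they were named with 9 segments, TRAV7D-2 for 18, TRAV7-5 for 10 and TRAV7N-5 for 9. TRAV7-3, TRAV7-6 and TRAV7N-4 were named for 1 each. Of all family clonotypes over all mice, TRAV7D-2 held 17.9%, TRAV7-5 20.5% and TRAV7N-5 9.52%. TRAV7-3 held 7.73%, TRAV7N-4 2.63% and TRAV7-6 2.25%. In CTX mice the 11 had a mean of 0.636 unassigned bases, beside 2.19 in the family's other clonotypes of those mice, and in CTX/CD4 mice the 56 had 1.88 beside 2.19.

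Shared members had fewer unassigned bases in their joints, and the same held for the other α clonotypes. In a mouse, 24.6% to 27.8% of family clonotypes had a CDR3 nucleotide sequence that the family also carried in another mouse, and the rest of the α clonotypes, counted in the same way, ran from 24.9% to 28.4%. The shared clonotypes had 0.904 ± 0.0314 unassigned bases (mean ± SD, n = 8 mice), against 2.63 ± 0.0723 in those found in 1 mouse, and were shorter, at 13.0 ± 0.0459 against 13.5 ± 0.0446 residues. Joints fully matched by germline V and J made up 33.1% ± 2.30 of the shared and 5.67% ± 0.826 of the private clonotypes. The ranges of the 8 mice, 29.1% to 36.8% and 4.25% to 7.01%, did not overlap. Among clonotypes found in 4 or more mice the share was 58.3% ± 3.21. Over all mice, distinct family sequences had 2.63 unassigned bases where found in 1 mouse and 0.361 where found in 4 or more, and those of the rest 2.67 and 0.562. Mean length went from 13.5 to 12.6 residues in the family and from 13.8 to 13.6 in the rest. Of the 7727 distinct sequences, 6804 were in 1 mouse, 113 in 4 or more and 4 in all 8 mice.

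**Figure D5:**
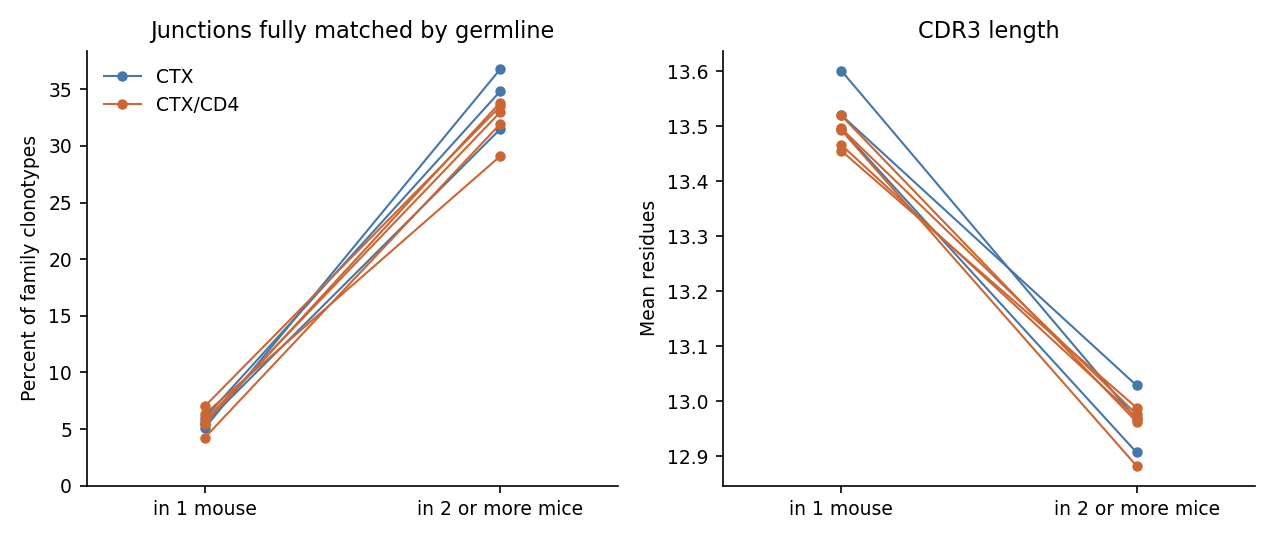
Family clonotypes whose CDR3 nucleotide sequence was found in 1 mouse or in 2 or more mice, each line joining the values of one mouse, as the percent with every base matched by the germline V start or J segment (left) and as mean length in residues (right, axis not from 0). In all 8 mice the shared clonotypes were more often fully matched, from 29.1% to 36.8% against 4.25% to 7.01%, and shorter.

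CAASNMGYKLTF, a full-length TRAV7D-2 start joined to TRAJ9, was the most-read sequence found in all 8 mice and never carried another V name, with 10, 18 and 4 reads in CTX mice 1 to 3 and 12, 9, 15, 14 and 4 in CTX/CD4 mice 1 to 5. It was among the family's 10 most-read clonotypes in 5 mice, and the groups overlapped. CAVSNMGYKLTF, its counterpart with the TRAV7N-5 start and the same J, had 6, 4 and 22 reads in CTX mice and 1, 6, 9, 1 and 7 in CTX/CD4 mice, under 3 V names. The same residues were also written by the leading sequence of CTX mouse 1, which has 2 unmatched bases in the codon after valine. That form had 31 reads there, 2 in CTX/CD4 mouse 4 and 0 in the other 6 mice. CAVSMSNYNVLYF had 28 reads in all, 1 to 9 in each mouse, and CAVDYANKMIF 17, with 1 to 4 in each mouse.

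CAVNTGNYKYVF was the most-read join of TRAV7N-5 with TRAJ40 and was among the family's 10 most-read clonotypes in 4 mice. Its main nucleotide form, printed above, had 16, 0 and 15 reads in CTX mice 1 to 3 and 11, 15, 2, 10 and 11 in CTX/CD4 mice 1 to 5. It was always named TRAV7N-5, and CTX mouse 2 and CTX/CD4 mouse 3 stood apart as the libraries with 0 and 2 reads. A second form with that V and J, read once in CTX/CD4 mouse 1, has 1 unmatched base.
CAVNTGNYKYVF, second form: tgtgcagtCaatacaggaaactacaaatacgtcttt
Under any TRAV7 name these residues were written by 5 nucleotide forms with 106 reads, found in all 8 mice, and under any V by 9 forms with 110 reads. The main form supplied 80 of the 125 reads of TRAV7N-5 joined to TRAJ40, which had 26 distinct sequences in all. By the match to the germline ends it has 2 unmatched bases, and the 4 sequences found in all 8 mice have 0. In the authors' alignment it had 0 unassigned bases in each of the 6 mice where it had 10 or more reads. Whether any of its reads came from Pmel-1 cells was not tested.

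Sharing within a group was not shown to differ from sharing between groups. By CDR3 nucleotide sequence, V and J, the overlap of a pair of mice (shared clonotypes over all clonotypes of the pair) was 1.38% ± 0.290 over the 13 pairs within a group and 1.44% ± 0.204 over the 15 pairs between groups, and an exact permutation of the mice gave p = 0.500. Without the V name the overlap was 3.80% and 3.71%. By CDR3 amino acid sequence and J it was 7.07% and 7.02%. CTX/CD4 mice 1 and 2 had the highest value by nucleotide sequence, V and J, at 1.93%, and by amino acid sequence and J, at 8.60%. By nucleotide sequence, V and J, CTX mouse 3 with CTX/CD4 mouse 4 was close, at 1.91%. By nucleotide sequence and J, CTX mouse 3 with CTX/CD4 mouse 2 was higher, at 4.70% against 4.57%.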

How the data were processed

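Receptor transcripts of sorted CD8+ cells were amplified by nested PCR, with 8 α libraries used here, 1 per mouse. The authors trimmed adapters with Scythe and Sickle, left out reads shorter than 36 bases, aligned with MiXCR and extracted clonotypes with VDJtools, and their deposited tables give a whole-number read count per clonotype, with each α library sampled down to 10000 reads. The labels name bcl2fastq and mm10. No molecular identifiers are described, so reads are not independent molecules and intervals cover counting error only. The deposited V end and J start positions (unit other) gave the unassigned bases, which were missing for 13 family clonotypes. The β tables were not used.

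Family members and gene lists were chosen with earlier results of these data known. Groups follow the labels, and mice are the replicates. Group values were compared with an exact Mann-Whitney test (11 comparisons) and family against rest with an exact sign-flip test over 8 mice, with Benjamini-Hochberg adjustment. Reads per V segment and per pair of V family and TRAJ were tested with edgeR 4.0.16 (quasi-likelihood, TMM, features with 10 reads in 3 mice) and DESeq2 1.42.0 as an alternative. Germline starts and J segments came from the GRCm38 RefSeq genome. Functions and fits were checked on simulated data. Python 3.11.15 and R 4.3.3 were used. Named clonotypes are the most-read of each mouse, those among the family's 10 most-read in 3 or more mice, the sequences in all 8 mice (up to 5, of which 4 existed) and the leading TRAV7N-5 join with TRAJ40. Segments and pairs are named where past the threshold.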

Additional observations from a re-analysis of the deposited data

Results flagged for a closer look

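Among 24 measures of the family in the 5 CTX/CD4 mice (the 11 group values and the reads of the 13 segments), 3 had one mouse set apart from the other 4 by more than 0.71 of the whole range, the 95% limit of Dixon's test for 5 values. Chance alone sets off about 1 in 20 such groups. TRAV7-2 had 142 reads in CTX/CD4 mouse 2, where the other mice of the group had 29 to 59. This is the mouse whose near-identical TRAV7-2 and TRAV7D-2 clonotypes were split differently. TRAV7D-4 had 307 reads in CTX/CD4 mouse 1, where the next mouse had 189, and 121 of them were of that mouse's most-read clonotype. TRAV7-3 had 74 reads in CTX/CD4 mouse 5, where the group's median was 143.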

How the results depend on the processing

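Of 212 alternatives over 18 results, 194 kept the direction and the side of the threshold, 17 turned the sign of a difference that had not passed its test, and 1 lowered a count of calls by more than 1.5 times. The causes were not tested. With clonotypes of 1 read left out, the difference for plain copies was -2.27 percentage points, that of mean TRAJ number between groups -0.15, that of unassigned bases between groups -0.0620 and against the rest 0.0467, and 7 TRAJ segments were called in place of 16. By share of reads 11 were called. With clonotypes counted once, D copies differed by -1.07 points. Overlap within minus between groups was 0.0875 points by nucleotide sequence and J and 0.0538 by amino acid sequence and J. Leaving out one mouse in turn gave -1.56 to 1.54 for plain copies, -0.0149 to 0.0474 for unassigned bases between groups, -0.133 to 0.0128 for overlap and 14 to 16 TRAJ segments called. Without 1 CTX mouse the exact Mann-Whitney test of 2 against 5 cannot go below p = 0.0952.

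Same-numbered mice are different animals, and what remained of their log2 reads per V segment after centring each group correlated at -0.0995, 0.0392 and -0.0578, so the numbers do not pair them. With a replicate block on mice 1 to 3 the family's share of reads differed by 0.947 points, unassigned bases by -0.00659, the number of clonotypes with 10 or more reads by 2 in place of 7.53 and their share of family reads by 4.83 points in place of 11.7, and 0 segments and 0 pairs were called. The block changed no call, but for the per-mouse values it could not have done so. An exact sign-flip test of 3 pairs cannot go below p = 0.25, and no group difference had passed before.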
